A study of Mus musculus with 10 samples.

Results

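The telomere-proximal regions of the autosomes are the 100 bp windows that lie within 5 Mb of the far end of a chromosome in 3 tables of ChIP-seq signal. On each of the 19 autosomes the end was taken as the largest coordinate of any region in the tables, and a region was counted as distal when its start lay within 5000000 bp of it. The rule used position alone and no signal. It gave 4713 regions of 85618 in the series, of which 1343 came from the H3K4me1 table, 1553 from the H3K4me2 table and 1817 from the H3K4me3 table. All other regions of the same autosomes (22728, 26696 and 29463) served as the comparison. All positions are on mm9, and the regions carried no gene names. All but 1 of the distal regions spanned exactly 100 bp, so reads per region compare equal lengths.

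The cells were J1 mouse embryonic stem cells labelled Dnmt TKO, at passages 7 to 10, that expressed Dnmt3a2 from a construct labelled WT, WWD or R. Dnmt TKO cells are known as cells that lack Dnmt1, Dnmt3a and Dnmt3b, and all groups share this background. The remaining sample, labelled TKO input, was not analysed here. Dnmt3a2 was precipitated with a FLAG antibody (6 samples, 2 per construct, 1 carrying the number 1 in its title and the other the word bulk), and H3K4me3 was profiled in 1 sample per construct, with the number 1 in its title. Each table held a single Dnmt3a2 column per construct that could not be assigned to either of those samples, so no comparison had a replicate check and no test was run. Whether a construct was expressed at the same level in every culture is not given in the labels. Library totals ranged from 17259400 to 27424019 reads, and signal is expressed as the mean number of reads at a region for every 10000000 sequenced in that library (reads per region per 10000000).

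Dnmt3a2 is the short isoform of the de novo DNA methyltransferase Dnmt3a. Its ADD domain recognises the tail of histone H3 when lysine 4 carries no methyl group, and methylation of that lysine hinders the contact. The title of the series describes the mutants as engineered in a histone-recognition domain. H3K4me3 is known for marking CpG-rich and active promoters, H3K4me1 for marking enhancers, and H3K4me2 for occurring at both. No H3K4me1 or H3K4me2 sample is listed, so whether the regions of those tables carried these marks in these cells was not tested. Mouse chromosomes are telocentric, with the centromere at the low-coordinate end, so the high-coordinate end leads to the distal telomere.

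Regions of all 3 tables were denser near the distal ends than elsewhere on the same autosomes. The distal windows covered 95 Mb, which is 3.94% of the autosomal span, and held 5.58% of H3K4me1, 5.50% of H3K4me2 and 5.81% of H3K4me3 autosomal regions. Density in H3K4me3 regions was 19.1 per Mb in the distal windows against 12.7 per Mb elsewhere, a ratio of 1.5 (95% counting interval 1.43 to 1.58). The ratio was 1.42 (1.35 to 1.49) for H3K4me2 regions, at 16.3 against 11.5 per Mb. It was 1.44 (1.36 to 1.52) for H3K4me1 regions, at 14.1 against 9.82 per Mb. These intervals treat regions as independent, although regions cluster, and they do not cover differences between chromosomes. The 5 Mb at the centromere-side end did not show the same density: they held 13.7 H3K4me3, 10.7 H3K4me2 and 9.18 H3K4me1 regions per Mb.

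The density was uneven among autosomes. It exceeded that of the rest of the same chromosome on 13 of 19 autosomes in each table. Chromosome 15 had the most distal regions, with 143 H3K4me1, 206 H3K4me2 and 247 H3K4me3 regions, and its H3K4me3 density was 4.19 times that of the rest of the chromosome. Chromosome 11 followed with 568 regions over the 3 tables, and chromosome 4 with 444. At the other extreme, chromosome 18 had 24, of which 1 was an H3K4me1 region, chromosome 17 had 35, chromosome 3 had 42 and chromosome 13 had 59. A distal mean over all regions is weighted towards a few chromosomes, and the pooled ratios below are therefore accompanied by counts or medians over autosomes. Without chromosome 15, the density ratios were 1.37 for H3K4me3, 1.29 for H3K4me2 and 1.36 for H3K4me1 regions.

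**Figure D1:**
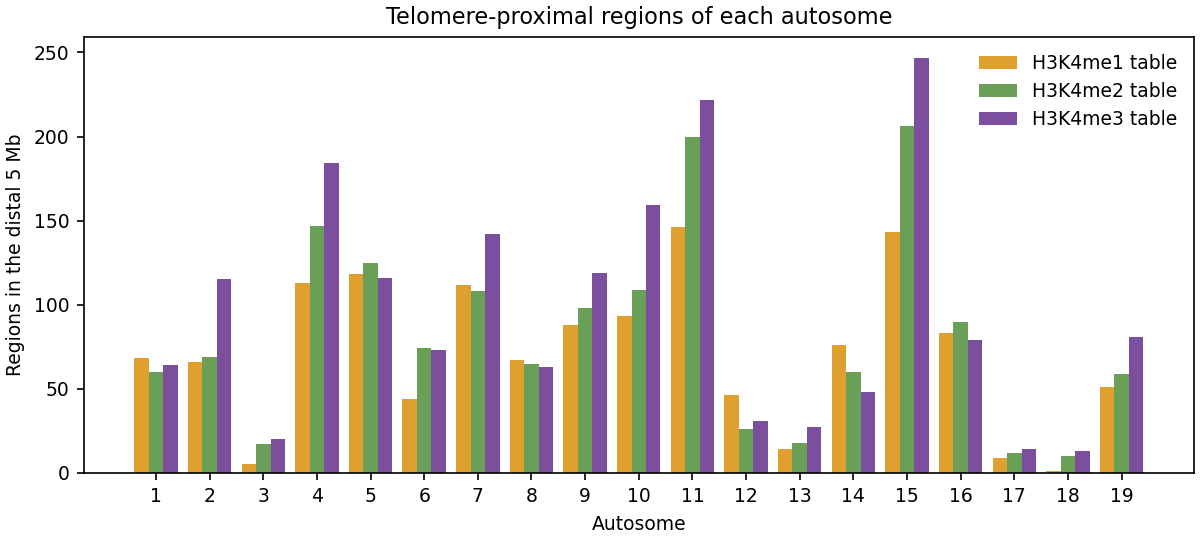
Number of regions in the distal 5 Mb of each autosome, with 1 bar per table of regions. Chromosomes 15, 11 and 4 hold the most distal regions, and chromosome 18 holds 24 over the 3 tables.

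The 3 kinds of region were not arranged alike within the distal windows. In the outermost Mb, H3K4me1 regions stood at 8.42 per Mb, below their level of 9.82 elsewhere. They stood at 11.4 per Mb from 1 to 2 Mb and at 18.5 per Mb from 2 to 3 Mb. H3K4me3 regions stood at 16.9 per Mb in the outermost Mb and at 21.3 per Mb from 4 to 5 Mb, and H3K4me2 regions at 15.2 and 18.5 per Mb, above their levels elsewhere throughout. Next to the chromosome end H3K4me1 regions, 160 in the outermost Mb, were thus not denser than elsewhere, whereas H3K4me2 and H3K4me3 regions were. With a window of 2 Mb, the density ratio was 0.990 for H3K4me1, against 1.27 for H3K4me2 and 1.38 for H3K4me3 regions.

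**Figure D2:**
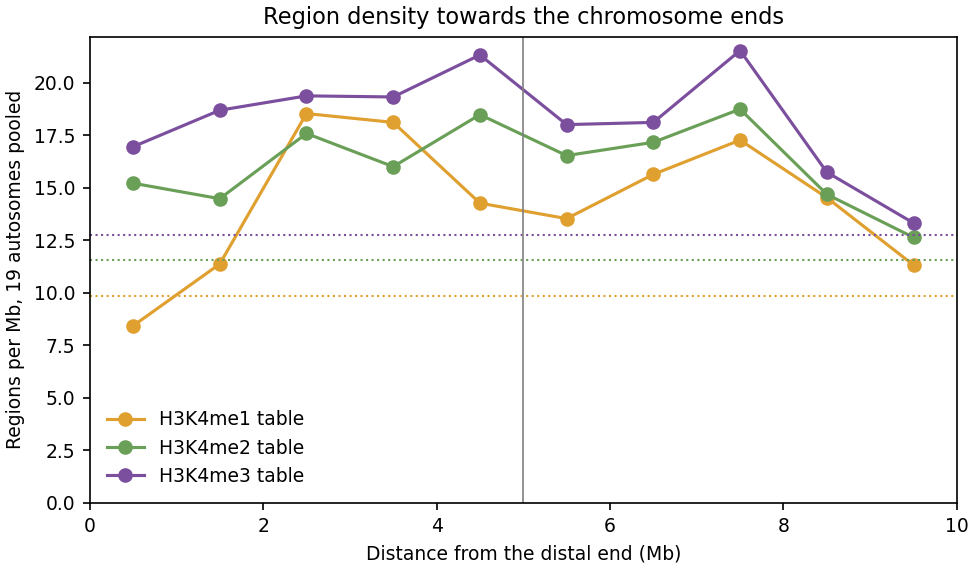
Regions per Mb against distance from the distal end, in bins of 1 Mb pooled over 19 autosomes, for the 3 tables. Dotted lines give the density of the other autosomal regions, and the vertical line marks the 5 Mb limit; H3K4me1 regions start at 8.42 per Mb in the outermost Mb, whereas H3K4me3 regions start at 16.9.

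Over the whole distal windows, the kinds of region lay near each other about as often as elsewhere. Of the distal H3K4me3 regions, 46.5% (exact Clopper-Pearson interval 44.2 to 48.8) lay within 500 bp of an H3K4me2 region, against 47.0% (46.4 to 47.5) of other H3K4me3 regions. Within 500 bp of an H3K4me1 region lay 3.25% (2.48 to 4.17) of distal and 3.0% (2.81 to 3.20) of other H3K4me3 regions. In the outermost Mb, 54.0% (48.4 to 59.6) of the 322 H3K4me3 regions lay near an H3K4me2 region, compared with 44.0% (40.5 to 47.6) of the 772 regions from 3 to 5 Mb. No distal region overlapped a region of another table by as much as 1 bp, so each table counts separate windows, some of them close neighbours.

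The H3K4me3 mark itself was close to its level elsewhere when averaged over the distal windows. In WT the distal H3K4me3 regions held a mean of 33.5 reads per region per 10000000, against 34.9 at other autosomal regions. In WWD the means were 29.4 and 31.0, and in R they were 28.4 and 29.2. The distal means were thus between 0.948 and 0.972 of the level elsewhere in the 3 libraries, with counting intervals that did not reach 1. The ratio over the 19 autosomes was 0.955 ± 0.225 for WT, 0.965 ± 0.200 for WWD and 0.988 ± 0.249 for R (mean ± SD over chromosomes, n = 19). Distal H3K4me3 exceeded that of the rest of the same chromosome on 7 autosomes for WT, 8 for WWD and 10 for R. The autosomes thus did not share a direction. With a window of 2 Mb the direction turned, at a ratio of 1.18 for WT, 1.22 for WWD and 1.26 for R.

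Some H3K4me3 regions held no H3K4me3 reads. The share of distal regions with 0 reads was 7.43% for WT, 14.3% for WWD and 19.5% for R, against 8.16%, 11.8% and 17.8% elsewhere. Chromosome 12 had the lowest distal mean in WT, at 15.9 over 31 regions, and chromosome 18 the lowest in WWD (19.8) and in R (15.2), over 13 regions. Chromosome 19 had the highest distal mean in WT, at 48.2, and in WWD, at 43.2, over 81 regions. A single region, described below, supplied 2183 of its 7336 reads in WT and 2918 of its 9105 reads in WWD. The medians over the chromosome 19 regions were 18.6 in WT and 15.4 in WWD. In R the highest distal mean was that of chromosome 3, at 40.7 over 20 regions. Rank correlations of H3K4me3 across the 1817 distal regions were 0.84 between WT and WWD, 0.79 between WT and R and 0.79 between WWD and R, close to 0.85, 0.79 and 0.78 elsewhere. These are descriptions over regions, which are not replicates.

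Inside the distal windows, H3K4me3 was highest next to the chromosome end. This split was chosen after the values by distance had been seen. The 322 regions of the outermost Mb had a mean of 45.8 for WT, 44.3 for WWD and 41.0 for R. The 772 regions from 3 to 5 Mb had means of 29.2, 24.5 and 23.4. The outermost regions were therefore 1.57-fold higher for WT, 1.81-fold for WWD and 1.75-fold for R, and the inner ones lay below the other autosomal regions, at 0.838, 0.788 and 0.802 of their level. Medians showed the same order, at 30.6 against 18.1 for WT, 34.2 against 14.99 for WWD and 30.1 against 12.03 for R.

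**Figure D3:**
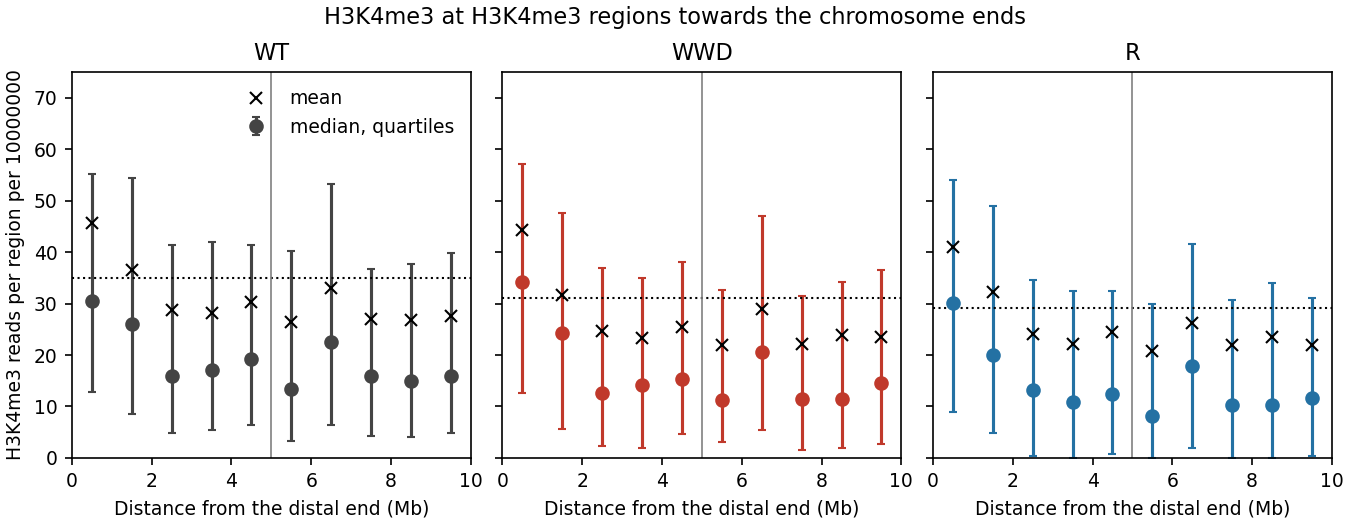
H3K4me3 reads per region per 10000000 at H3K4me3 regions against distance from the distal end, in bins of 1 Mb, for each construct; points are medians over regions, bars run from the lower to the upper quartile and crosses are means. The dotted line is the mean of other autosomal regions and the vertical line the 5 Mb limit; the median is highest in the outermost Mb in each library, at 30.6 for WT, 34.2 for WWD and 30.1 for R.

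The pattern was carried by most but not all autosomes. The mean of the outermost Mb exceeded that from 3 to 5 Mb on 12 of 19 autosomes for WT, on 14 for WWD and on 15 for R. Chromosome 9, for example, had a mean of 68.2 over 16 outermost regions against 27.6 over 60 inner regions in WT, and chromosome 11 had 51.8 over 28 against 24.1 over 86. Chromosome 4, with 62 outermost and 64 inner regions, had 47.0 against 24.98 for WT, 44.6 against 18.9 for WWD and 39.0 against 18.4 for R. The order was the opposite on chromosome 7 in every library, at 30.7 over 23 regions against 47.0 over 71 regions in WT. Chromosomes 12 and 14, with 4 outermost regions each, were also lower at the end in every library. On chromosome 15 the means were nearly equal in WT, at 29.76 and 30.04.

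**Figure D4:**
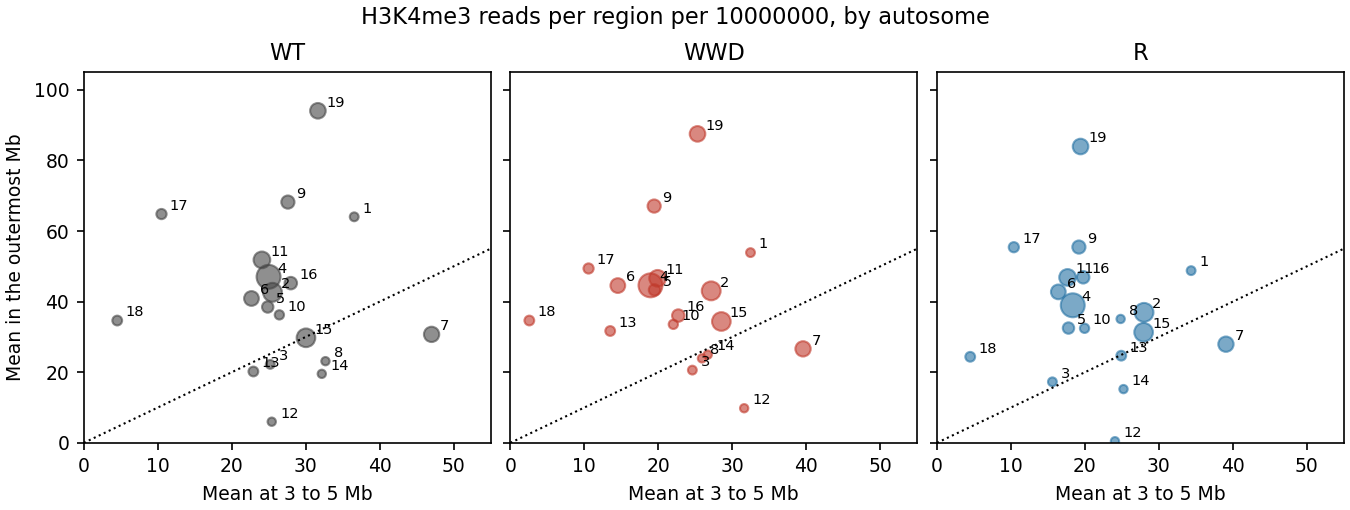
Mean H3K4me3 reads per region per 10000000 in the outermost Mb (vertical axis) against 3 to 5 Mb from the end (horizontal axis), 1 point per autosome numbered by chromosome, for each construct; point area grows with the number of regions in the outermost Mb. Points above the dotted line of equality are autosomes with the higher mean at the end, which are 12 of 19 for WT, 14 for WWD and 15 for R; chromosome 7 lies below the line in all 3 panels.

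Position next to H3K4me2 regions moved with the level. Over all distal H3K4me3 regions in WT, those near an H3K4me2 region and not near an H3K4me1 region had a mean of 38.7, those near neither 30.03 and those near an H3K4me1 region 16.5. In the outermost Mb the means of the first 2 classes were nearly level, at 47.0 over 171 regions and 46.1 over 144 regions. The mean of 46.1 includes the chromosome 19 region described below, which stood at 1161 in WT. By medians the first 2 classes were less alike, at 35.1 and 28.2. The mean of the third was 8.59 over 7 regions. From 3 to 5 Mb the means of the classes were 34.9, 25.5 and 19.2, the last over 29 regions. The higher share of regions near H3K4me2 in the outermost Mb was thus seen beside a higher level in each of the first 2 classes, whereas the few regions near H3K4me1 had a lower one. Its part in the gradient was not tested, and neither was that of gene density or base composition, for which no values were at hand.

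A single region of chromosome 19 contributed visibly to these means. The region chr19:61275611-61275710, 58.4 kb from the end, held 2183 H3K4me3 reads for WT, 2918 for WWD and 2734 for R. The highest count at any autosomal region outside the distal windows was 1236 for WT, 1260 for WWD and 1376 for R. The same maxima were found among the regions within 5 Mb of the centromere-side end. Without this region the ratio of the outermost Mb to 3 to 5 Mb was 1.45 for WT, 1.68 for WWD and 1.63 for R. Without chromosome 19 as a whole it was 1.44, 1.67 and 1.59. The gradient was smaller but kept its direction in all 3 libraries.

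The chromosome 19 end also held the strongest Dnmt3a2 counts among distal regions. At chr19:61275611-61275710 there were 21 Dnmt3a2 reads for WT, 48 for WWD and 57 for R, the most of any distal H3K4me3 region in each construct. The H3K4me1 region with the most Dnmt3a2 reads, chr19:61300306-61300405, lay 24.7 kb closer to the end and held 135 reads for WT, 28 for WWD and 186 for R. WT and R were high there and WWD was low, the reverse of the usual order of the constructs. It supplied 9.08% of all WT reads and 12.4% of all R reads at distal H3K4me1 regions. Outside the distal windows, single H3K4me1 regions held up to 1246 Dnmt3a2 reads for WT, 52 for WWD and 1180 for R. The same maxima were found among the H3K4me1 regions within 5 Mb of the centromere-side end. Counts this high at H3K4me1 regions were thus not particular to the distal end. These maxima do not show whether such counts occurred away from both ends. Single H3K4me3 regions outside the distal windows held up to 23, 24 and 27. The pooled Dnmt3a2 ratios of the H3K4me1 and H3K4me3 tables are given with and without these chromosome 19 regions below. Background at these positions was not tested, since the input was not used here.

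Dnmt3a2 signal was sparse at distal regions, as it was elsewhere. No Dnmt3a2 read in any construct fell in 1126 of the 1817 distal H3K4me3 regions (62.0%), in 813 of 1553 H3K4me2 regions (52.4%) and in 545 of 1343 H3K4me1 regions (40.6%). At other autosomal regions these shares were 61.3%, 50.9% and 38.8%. A read in all 3 constructs was found in 11, 21 and 29 regions (0.605%, 1.35% and 2.16%), against 0.472%, 1.17% and 2.03% elsewhere. Reads in WWD alone were the most common pattern among occupied regions, at 342 H3K4me3 regions (18.8%), 310 H3K4me2 regions (19.96%) and 312 H3K4me1 regions (23.2%). Reads in WT alone fell in 103 distal H3K4me3 regions (5.67%) and reads in R alone in 113 (6.22%), against 6.10% and 5.94% elsewhere. These shares are near those elsewhere, and they are not a result about the chromosome ends. With reads this sparse, a count at a single region says little, and the means below rest on sums over many regions.

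For the WT protein, the pooled values of distal and other regions did not differ beyond counting error in any table. WT Dnmt3a2 stood at 0.461 reads per region per 10000000 at distal H3K4me1 regions against 0.467 elsewhere. The ratio was 0.988 (95% counting interval 0.937 to 1.04), but 0.899 (0.851 to 0.9496) without the chromosome 19 region. Only the distal set was trimmed there, although other H3K4me1 regions held up to 1246 WT reads. With 1 autosome left out at a time, the ratio ran from 0.904 (without chromosome 19) to 1.03 (without chromosome 9). At H3K4me2 regions the values were 0.293 and 0.299 (ratio 0.981, 0.922 to 1.04), and at H3K4me3 regions 0.170 and 0.178 (0.957, 0.887 to 1.03, or 0.930 without the chromosome 19 region). Over autosomes the medians of the ratio were 0.918, 0.914 and 0.924 in the H3K4me1, H3K4me2 and H3K4me3 tables, and it was above 1 on 6, 8 and 6 of 19. The order of the tables, with the fewest reads at H3K4me3 regions, was the same at the chromosome ends as elsewhere. Shares of distal regions with a read were 22.8%, 16.1% and 9.58%, against 22.8%, 16.4% and 10.1%. Reads within a region are clumped, so all such intervals are too narrow, and they cover counting error only.

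For WWD, the distal H3K4me1 regions held slightly fewer reads than the rest, and the other 2 tables showed no difference beyond counting error. The means were 0.786 and 0.858 at H3K4me1 regions, a ratio of 0.916 (0.873 to 0.960). They were 0.528 and 0.547 at H3K4me2 regions (0.964, 0.913 to 1.02) and 0.496 and 0.497 at H3K4me3 regions (0.999, 0.949 to 1.05). Without the chromosome 19 regions the ratio was 0.902 (0.860 to 0.946) at H3K4me1 and 0.969 (0.919 to 1.02) at H3K4me3 regions. The H3K4me1 ratio was above 1 on 7 of 19 autosomes, with a mean of 0.890 ± 0.310 (SD over chromosomes, n = 19). At H3K4me2 regions it was above 1 on 7 autosomes (median 0.886) and at H3K4me3 regions on 9 (median 0.941). When only regions occupied in 2 or more of the 3 constructs were kept, the H3K4me1 ratio turned to 1.05. That filter selects on the reads being averaged. It drops the regions read in WWD alone, 23.2% of distal and 24.5% of other H3K4me1 regions, so it is no check of the ratio.

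For R, the direction of the difference between distal and other regions changed with the table. At distal H3K4me3 regions R Dnmt3a2 stood at 0.220 against 0.187 elsewhere, a ratio of 1.17 (1.10 to 1.25), and it exceeded the rest of the chromosome on 11 of 19 autosomes. At H3K4me2 regions the ratio was 0.921 (0.867 to 0.977), at 0.292 against 0.317, with 6 of 19 autosomes above 1 and a median of 0.795. At H3K4me1 regions it was 1.09 (1.03 to 1.15), at 0.441 against 0.405, and its median over autosomes was 0.820. Without the chromosome 19 region it was 0.954 (0.901 to 1.01), but other H3K4me1 regions held up to 1180 R reads and were not trimmed. With 1 autosome left out at a time, it ran from 0.949 (without chromosome 19) to 1.16 (without chromosome 9). The ratio at H3K4me3 regions was 1.11 (1.04 to 1.18) without the chromosome 19 region, and 1.08 without chromosome 15, where 247 regions held 202 R reads. The share of distal H3K4me3 regions with an R read was 10.8% (9.45 to 12.4) against 9.88% (9.54 to 10.2) elsewhere, and these intervals overlap. Over the 19 autosomes the R ratio at H3K4me3 regions had a mean of 1.14 ± 0.54 (SD), a median of 1.04 and a range from 0 to 2.06.

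**Figure D5:**
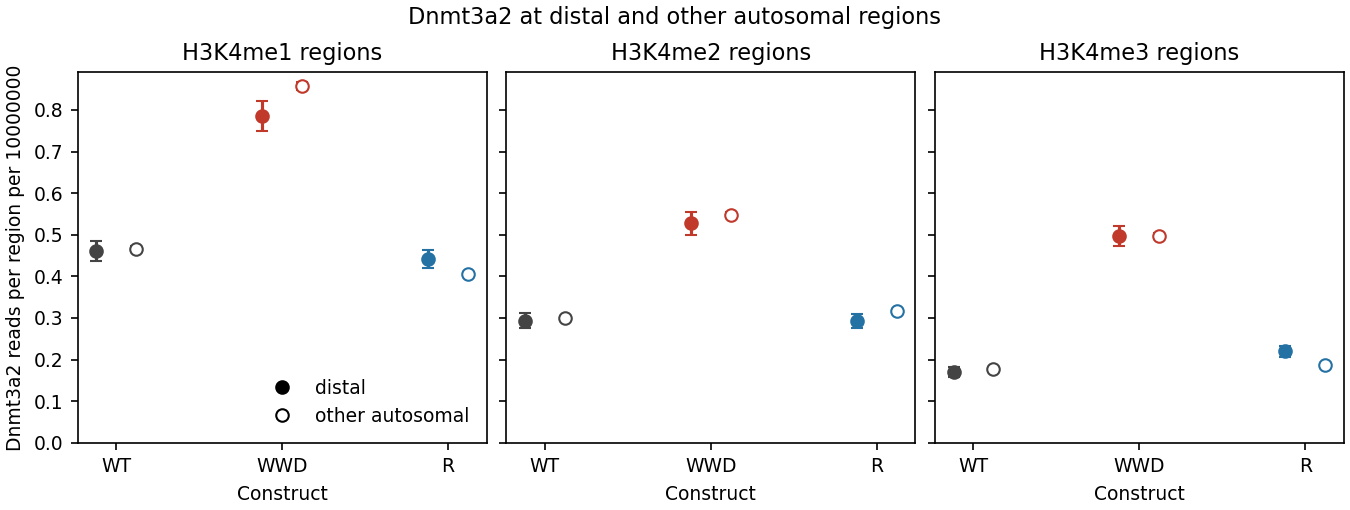
Mean Dnmt3a2 reads per region per 10000000 at distal regions (filled) and other autosomal regions (open) for each construct in the 3 tables; bars are 95% Poisson intervals of the read counts and cover counting error only. WWD is the highest construct in each panel, and distal and other values lie close together, with R at H3K4me3 regions at 0.220 against 0.187.

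Distal Dnmt3a2 also varied with the chromosome. At H3K4me3 regions, WT reads were most frequent on chromosome 10, at 0.283 per region, and absent from the 14 distal regions of chromosome 17 and the 20 of chromosome 3. R was highest on chromosome 19, at 0.416, and had no read on chromosome 17. Of the 85 R reads on chromosome 19, 57 came from the single H3K4me3 region described above. WWD was highest on chromosome 18, at 0.891 over 13 regions, and lowest on chromosome 3, at 0.116 over 20 regions. At H3K4me2 regions, WT ranged from 0.035 on chromosome 17 to 0.458 on chromosome 14, WWD from 0.116 on chromosome 18 to 0.933 on chromosome 13, and R from 0.088 on chromosome 13 to 0.627 on chromosome 17. Most of these extremes came from autosomes with 20 or fewer distal regions, and no autosome was the highest in all 3 constructs. At H3K4me1 regions chromosome 19 was the highest in WT (1.45) and in R (1.83), with the H3K4me1 region described above, and chromosome 3 in WWD (1.27), over 5 regions. Chromosome 18 was the lowest in each construct there, with no read at its single region.

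Between constructs, the WWD protein had the most reads at distal regions of every table. WWD over WT was 2.92 (2.68 to 3.20) at distal H3K4me3 regions, 1.80 (1.66 to 1.95) at H3K4me2 regions and 1.70 (1.59 to 1.83) at H3K4me1 regions. The ratios elsewhere were 2.80 (2.74 to 2.86), 1.83 (1.80 to 1.87) and 1.84 (1.81 to 1.87). WWD had the higher mean on 19, 17 and 16 of the 19 autosomes. The excess of WWD was thus largest at the regions named after H3K4me3, at the chromosome ends as on the rest of the autosomes, and the distal and other ratios had overlapping intervals in each table. At H3K4me1 regions the distal ratio was 1.85 without the chromosome 19 region, which is close to that elsewhere. When only regions occupied in 2 or more constructs were kept, WWD over WT at distal H3K4me3 regions was 1.95. That filter removes by construction the 342 regions read in WWD alone and the 103 read in WT alone, so it lowers the ratio and is no check of it.

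R over WT was above 1 at distal H3K4me3 regions and at or below 1 in the other tables. It was 1.29 (1.18 to 1.42) at distal H3K4me3 regions against 1.05 (1.03 to 1.08) elsewhere, and R had the higher mean on 15 of 19 autosomes. Without the chromosome 19 region it was 1.26 (1.14 to 1.39), and with a distal window of 10 Mb it was 1.09. By shares of regions with a read, R over WT was 1.13 at distal and 0.978 at other H3K4me3 regions. At distal H3K4me2 regions R over WT was 0.996 (0.916 to 1.08), with R higher on 8 of 19 autosomes. At H3K4me1 regions it was 0.957 (0.890 to 1.03), with R higher on 11, and 0.921 (0.853 to 0.995) without the chromosome 19 region. With 1 column per construct, a difference between constructs cannot be told apart from a difference between libraries or in protein level.

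Dnmt3a2 of WT and WWD had lower means at the distal H3K4me3 regions with the stronger mark. The regions were split at the autosomal median of mean H3K4me3 over the constructs, 21.1 reads per region per 10000000. WT Dnmt3a2 was 0.192 (0.174 to 0.211) below and 0.147 (0.131 to 0.164) above this level, WWD 0.535 (0.4997 to 0.572) and 0.456 (0.423 to 0.492), and R 0.234 (0.215 to 0.254) and 0.205 (0.187 to 0.224). The R intervals overlap. Elsewhere the WT means lay further apart, at 0.227 and 0.128. WWD over WT was 2.79 (2.48 to 3.14) below and 3.10 (2.71 to 3.55) above the median at distal regions, with overlapping intervals, against 2.37 and 3.56 elsewhere, where they were separate. The rise of the WWD excess with H3K4me3 that is seen in the rest of the autosomes was therefore not resolved at this depth in the distal windows.

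Near the ends, Dnmt3a2 showed no gradient shared by all constructs and tables. In the outermost Mb, Dnmt3a2 at H3K4me3 regions stood at 0.150 for WT, 0.502 for WWD and 0.239 for R. Without the chromosome 19 region these values were 0.123, 0.417 and 0.169. Further in, R stood at 0.248 from 1 to 2 Mb and 0.259 from 2 to 3 Mb, then at 0.169 and 0.190 in the bins up to 5 Mb. R over WT at H3K4me3 regions was 1.59 (1.26 to 2.02), 1.26 (1.02 to 1.54) and 1.96 (1.56 to 2.46) in the bins up to 3 Mb. It was then 0.933 (0.744 to 1.17) and 1.02 (0.832 to 1.26). The bins with counting intervals above 1 were thus those within 3 Mb of the end, a limit read from these same bins. The outermost bin includes the H3K4me3 region of chromosome 19, with 57 R and 21 WT reads. WT was lowest from 2 to 3 Mb, at 0.132. At H3K4me1 regions of the outermost Mb WT stood at 0.791 and R at 0.978, but at 0.443 and 0.520 without the chromosome 19 region. The apparent rise of WT and R Dnmt3a2 at terminal H3K4me1 regions thus came largely from 1 region.

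Values on either side of the 5 Mb limit depended on the width compared. The last 0.25 Mb inside it held 64 H3K4me3 regions, with mean H3K4me3 of 25.7 for WT, 24.3 for WWD and 22.8 for R and mean Dnmt3a2 of 0.215, 0.561 and 0.198. The first 0.25 Mb outside held 65, with H3K4me3 of 33.8, 26.4 and 28.6 and Dnmt3a2 of 0.109, 0.784 and 0.164. In bins of 1 Mb the order of H3K4me3 was the other way, at 30.2 for WT, 25.5 for WWD and 24.5 for R from 4 to 5 Mb and 26.4, 21.9 and 20.8 from 5 to 6 Mb.

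H3K4me3 differed from WT at similar shares of distal and other regions. A region was called when it differed by more than 2-fold on the log2 scale of reads per 10000000 plus a pseudocount of 3.72. In WWD, 146 of 1817 distal regions (8.04%) were higher, where 8.44% of all H3K4me3 regions were, and 299 (16.5%) were lower, where 15.0% of all were. In R, 148 distal regions (8.15%) were higher against 9.06% of all, and 439 (24.2%) were lower against 24.1% of all. These shares are near the background, and they are not a result about the chromosome ends. The counts depended on the pseudocount: with 24.6, the median of positive values, 13 distal regions were higher and 37 lower in WWD, and 26 and 77 in R. The median log2 ratio was -0.18 in WWD and -0.27 in R at distal regions, and -0.13 and -0.25 elsewhere.

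Lower calls made up a smaller share of the outermost Mb than of the regions further in, with intervals that did not overlap. In WWD 24 of its 322 regions were lower (7.45%, interval 4.83 to 10.9), compared with 149 of 772 regions from 3 to 5 Mb (19.3%, 16.6 to 22.3) and 15.0% of all H3K4me3 regions. In R the shares were 20.2% (15.9 to 24.99) and 28.5% (25.3 to 31.8), against 24.1% of all. The R interval of the outermost Mb thus holds the share of all regions, and that of WWD lies below it. Higher calls were alike, at 8.39% and 6.87% in WWD and 8.07% and 7.90% in R. The outermost regions also had more H3K4me3 reads in WT, at a mean of 45.8 against 29.2, and the part of this in the difference was not tested.

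Single regions showed how far the libraries could differ. At chr11:120495166-120495265, 1344.4 kb from the end, there were 15 Dnmt3a2 reads in WWD and none in WT or R, and H3K4me3 was 128 reads for WT, 309 for WWD and 141 for R. At chr4:154238639-154238738 and at chr9:123169045-123169144, R had 19 Dnmt3a2 reads each and the other constructs none. The 3 regions also carried H3K4me3 in every library, with 62, 104 and 85 reads at the chromosome 4 region and 59, 122 and 74 reads at the chromosome 9 region in WT, WWD and R. In contrast, chr15:98669902-98670001 had 13 Dnmt3a2 reads in WWD alone and no H3K4me3 read in any library. These regions were picked for their extreme values.

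WT-dominated regions existed as well. The H3K4me2 region chr14:122792648-122792747 held 26 Dnmt3a2 reads for WT, 1 for WWD and 5 for R. At chr1:193256376-193256475 and chr4:153968966-153969065, both H3K4me3 regions, WT had 12 and 11 reads while WWD and R had none. A pair of H3K4me2 regions on chromosome 4, chr4:155159661-155159760 and chr4:155178543-155178642, had the opposite pattern. The first held 0 reads for WT, 10 for WWD and 12 for R, and the second 0, 6 and 17. They lie 469.1 and 450.3 kb from the end of the chromosome. The H3K4me2 region with the most R reads, chr10:128186292-128186391, had 19 in R and none in WT or WWD.

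Large H3K4me3 differences were also seen at single distal regions. The strongest distal H3K4me3 regions after that of chromosome 19 were chr8:129494794-129494893, with 498 reads for WT, 647 for WWD and 367 for R, and chr7:148068384-148068483, with 404, 525 and 606. At chr12:118772435-118772534 WT had 139 reads, WWD 9 and R 86. At chr11:119216917-119217016 the counts were 68, 0 and 235, and at chr11:121215525-121215624 they were 174, 161 and 12. At chr7:152048243-152048342, 463.7 kb from the end, R had 264 reads beside 23 in WT and 54 in WWD. At chr15:100101184-100101283 the counts were 11, 154 and 85. Each of these had no Dnmt3a2 read in any construct, except the chromosome 8 region, which had 6 in R.

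The outermost region of each autosome, which set its end, was an H3K4me3 region on 10 autosomes, an H3K4me1 region on 5 and an H3K4me2 region on 4. The 10 H3K4me3 regions held a median of 95.5 H3K4me3 reads for WT (range 0 to 421), 138 for WWD (19 to 454) and 158.5 for R (3 to 502). The highest in WT was chr1:197067889-197067988, with 421 reads for WT, 454 for WWD and 468 for R. On chromosome 13 the outermost region, chr13:120276994-120277093, had 10 reads for WT, 120 for WWD and 86 for R. Dnmt3a2 was mostly missing there, with 0 reads at 15 of the 19 outermost regions for WT, 12 for WWD and 15 for R, and at most 9 reads in any library. The 3 regions next closest to an end, on chromosomes 12, 15 and 16, had no Dnmt3a2 read in any construct.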

How the data were processed

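For FLAG-tagged Dnmt3a2 and H3K4me3 ChIP-seq, the submitters' processing notes name Bowtie and the mm9 build. Neither read filters nor the calling of regions are described in the sources used here. The authors deposited log2 values per region, and their headers state total and effective read numbers of every column. Judged from the deposited values, each was log2(1 + f(n + u)) to 2 decimals, with n whole reads, u a random fraction of a read and f the effective over the total number. Whole reads were recovered by inverting it, which was tested on simulated data, and were scaled to 10000000 reads of the library total. The simulated data were made with the same form, so they checked the inversion and not the form itself. No filter on low values was used. A further 2 columns matched no listed sample and were not used, and the input was not analysed here, so no background was subtracted.

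Intervals are 95% exact Poisson, conditional binomial or Clopper-Pearson intervals, which cover counting error only: PCR copies of a molecule count as several reads. Called H3K4me3 differences exceed 2-fold with a pseudocount of 3.72 reads, the 10th percentile of positive values. Named regions were, per table, those with the most Dnmt3a2 reads per construct, the 2 highest and 2 lowest ratios to WT (Dnmt3a2 with a pseudocount of 1 read per 10000000, H3K4me3 among members above the median), the 3 strongest H3K4me3 regions, the outermost regions and the 3 next closest, and the autosomes with extreme means. Examples from these are given. The regions and rules were chosen with earlier results of these data known. Alternatives covered the window, a cap of 20 reads, shares, a filter on 2 of 3 columns, pseudocounts, centring and left-out autosomes. Python 3.11.15, numpy 2.4.6, pandas 2.3.3, scipy 1.17.1 and matplotlib 3.10.9 were used.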

Additional observations from a re-analysis of the deposited data

How the results depend on the processing

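With a window of 2 Mb, the ratio of distal to other regions turned to 1.18 (WT), 1.22 (WWD) and 1.26 (R) for H3K4me3 reads and to 0.990 for H3K4me1 region density, while density was 1.27 for H3K4me2 and 1.38 for H3K4me3 regions. Dnmt3a2 distal over other was then 1.12 (WT), 0.821 (WWD) and 1.42 (R) at H3K4me1 regions, 1.07 (WT) at H3K4me2 regions and 0.946 (WWD) and 1.30 (R) at H3K4me3 regions. WWD over WT was 1.34 and 1.58 at H3K4me1 and H3K4me2 regions, and R over WT 1.10 at H3K4me1 regions. With 10 Mb, H3K4me3 distal over other was 0.878 (WT), 0.854 (WWD) and 0.872 (R), and Dnmt3a2 at H3K4me3 regions 1.06, 1.07 and 1.08, with R over WT at 1.09. With a cap of 20 reads, R distal over other was 1.01 and WWD over WT 1.84 at H3K4me1 regions. By shares of regions with a read, R distal over other turned to 0.956 at H3K4me1 and was 1.10 at H3K4me3 regions, R over WT was 0.781, 0.904 and 1.13 in the H3K4me1, H3K4me2 and H3K4me3 tables, and WWD over WT 2.67 at H3K4me3 regions. Among regions with reads in at least 2 of 3 columns, Dnmt3a2 distal over other was 1.08 (WT), 1.05 (WWD, turned) and 1.16 (R) at H3K4me1 regions. It was 1.13 (WWD) and 1.29 (R) at H3K4me3 regions, and WWD over WT was 1.25, 1.25 and 1.95 in the 3 tables. This filter selects on the reads being compared, so it is no check of these ratios. As a median over autosomes, Dnmt3a2 distal over other was 0.918 (WT) and 0.820 (R, turned) at H3K4me1 regions, 0.914 (WT), 0.886 (WWD) and 0.795 (R) at H3K4me2 regions and 0.941 (WWD) and 1.04 (R) at H3K4me3 regions. By medians of reads, H3K4me3 distal over other was 0.929 (WT), 0.942 (WWD) and 0.918 (R), and without chromosome 8 it was 0.972, 0.960 and 0.990. With the median of positive values as pseudocount, distal H3K4me3 calls numbered 13 (WWD) and 26 (R) in the higher direction and 37 and 77 in the lower. With the 1st percentile, 454 were lower in WWD, and with centring, 228 were higher in R.

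Other alternatives were chosen after the data were seen. Without the chromosome 19 region, and with the other autosomal regions left whole, Dnmt3a2 distal over other at H3K4me1 regions was 0.899 (WT). It turned to 0.954 (R), and WWD over WT was 1.85. The H3K4me3 ratio of the outermost Mb to 3 to 5 Mb was then 1.45 (WT), 1.68 (WWD) and 1.63 (R). This ratio was 1.44, 1.67 and 1.59 without chromosome 19, 1.69, 2.28 and 2.50 by medians of reads, and 1.62, 1.66 and 1.63 as a median over autosomes. Without chromosome 15, density ratios were 1.36, 1.29 and 1.37 in the H3K4me1, H3K4me2 and H3K4me3 tables, and R distal over other was 1.08 at H3K4me3 regions. Of 172 alternatives for 28 results, 96 stayed within the counting interval or within 1.5 times the count, 68 moved and 8 turned from a value whose counting interval did not hold 1. Of the 68, 7 also crossed 1, from an interval that held it. The causes were not tested. Scaling by the effective total was not run, since that number is the same for all constructs. No paired analysis was possible because each construct had 1 column per table: Dnmt3a2 columns carry no replicate number, and the H3K4me3 samples share a single one. Between 9.58% and 22.8% of distal regions in the 3 tables held a WT Dnmt3a2 read, so single regions and chromosomes with few regions are limited by depth.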

Other observations

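Chromosome X was outside the autosomal set. The last 5 Mb before its largest coordinate, 166442589, held 13 of 215 H3K4me1 regions, 25 of 730 H3K4me2 regions and 31 of 1012 H3K4me3 regions. The 31 H3K4me3 regions had a mean of 23.7 H3K4me3 reads per region per 10000000 for WT, 21.5 for WWD and 18.1 for R, against 18.8, 18.3 and 17.7 at other regions of chromosome X. No Dnmt3a2 read of WT or R fell in these 31 regions, where WWD had 12. At the 25 H3K4me2 regions there were 2 Dnmt3a2 reads for WT, 24 for WWD and 15 for R. At the 13 H3K4me1 regions there were 12 for WT, 7 for WWD and 48 for R.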
